A study of Triticum aestivum with 16 samples.

Results

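Among 61115 wheat probe sets, 49 had an on-off pattern over 8 recombinant inbred lines: a set of lines with a high level, the other lines with a low level, and a wide gap between them. A probe set is the group of array probes that reads 1 transcript sequence. The 49 were chosen by their measured levels. The log2 line means had to span at least 3 units, the largest gap between neighbouring line means had to exceed 60% of that span, and the replicates of every line had to differ by less than 50% of the gap. Of 60 probe sets that met these limits, 11 were left out because they split SB165, SB169, SB10 and SB3 from SB62, SB109, SB69 and SB57. The other 49 follow other splits of the lines.

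The 8 lines, named SB3, SB10, SB57, SB62, SB69, SB109, SB165 and SB169, come from the wheat cross Seri M82 x Babax. They were grown in the field without irrigation, and the tops of main-tiller stems were taken at anthesis, soon after heavy rain. Each of the 16 arrays read RNA pooled from 7 to 8 stems of 1 plot, with 2 field replicates per line. The parents were not analysed here, so a high or low level is not assigned to either of them.

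In a population of recombinant inbred lines, each line is selfed until most loci are fixed for the allele of 1 parent, so a locus at which the parents differ divides the lines into carriers of either allele. Bread wheat is a polyploid that carries several related copies of most genes, and probe sets may read 1 copy or several. A probe set reads transcript abundance only as far as the transcript matches its probes. A lower amount of transcript and a transcript with a different sequence under the probes cannot be told apart in these values. In pooled stems, fewer cells of a type and less RNA per cell cannot be told apart either.

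Array medians lay between 23.56 and 25.01 intensity units, and replicates of a line correlated at 0.984 to 0.995 over the log2 values of all wheat probe sets. Where their lines were low, SB165 replicate 2, SB10 replicate 1 and SB69 replicate 1 stood apart at on-off probe sets. This is described with the uneven replicates, as are uneven levels of SB165 where it was high. The table of array genes gives a symbol for 1273 of the 61115 wheat probe sets and for 1 of the 49. The other 48 are given by identifier. Few markers of the tissue could be checked: COMT1, an enzyme of lignin synthesis in stems, had a mean log2 level of 12.68, and 13 probe sets of gliadins or glutenins, the storage proteins of grain, had 2.08 to 6.96. Profilins, listed as pollen markers but also found in other tissues, had 11.49 and 12.74. Probe sets for markers of photosynthesis and phloem were not named by the table.

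In the normalized log2 values, the mean of the high lines lay between 5.49 and 12.46 over the 49 probe sets, with a median of 7.62. The mean of the low lines lay between 2.41 and 8.10, with a median of 3.85. The gap ran from 1.86 to 5.54 log2 units, with a median of 2.97. No detection calls were used, so dim low levels are not shown to be above background, and gaps against them are bounds that the true difference may exceed. No array of a high line overlapped an array of a low line at any of the 49, as the replicate limit of the choice requires. The lowest array on the high side stood above the highest array on the low side by 1.39 to 5.20 log2 units.

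Low did not always mean dim. In 36 of the 49, the mean of the low lines lay below the median of all values on the 16 arrays, and in 13 it lay above. The brightest low level belonged to Ta.27795.1.S1_at, with a mean of 12.46 in SB165, SB169, SB10 and SB69 and 8.10 in SB62, SB109, SB57 and SB3. Its low lines were thus brighter than 91.0% of all values. The dimmest low level, 2.41 in SB169 and SB10, belonged to Ta.22426.2.S1_at and lay above 4.80% of all values.

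**Figure D1:**
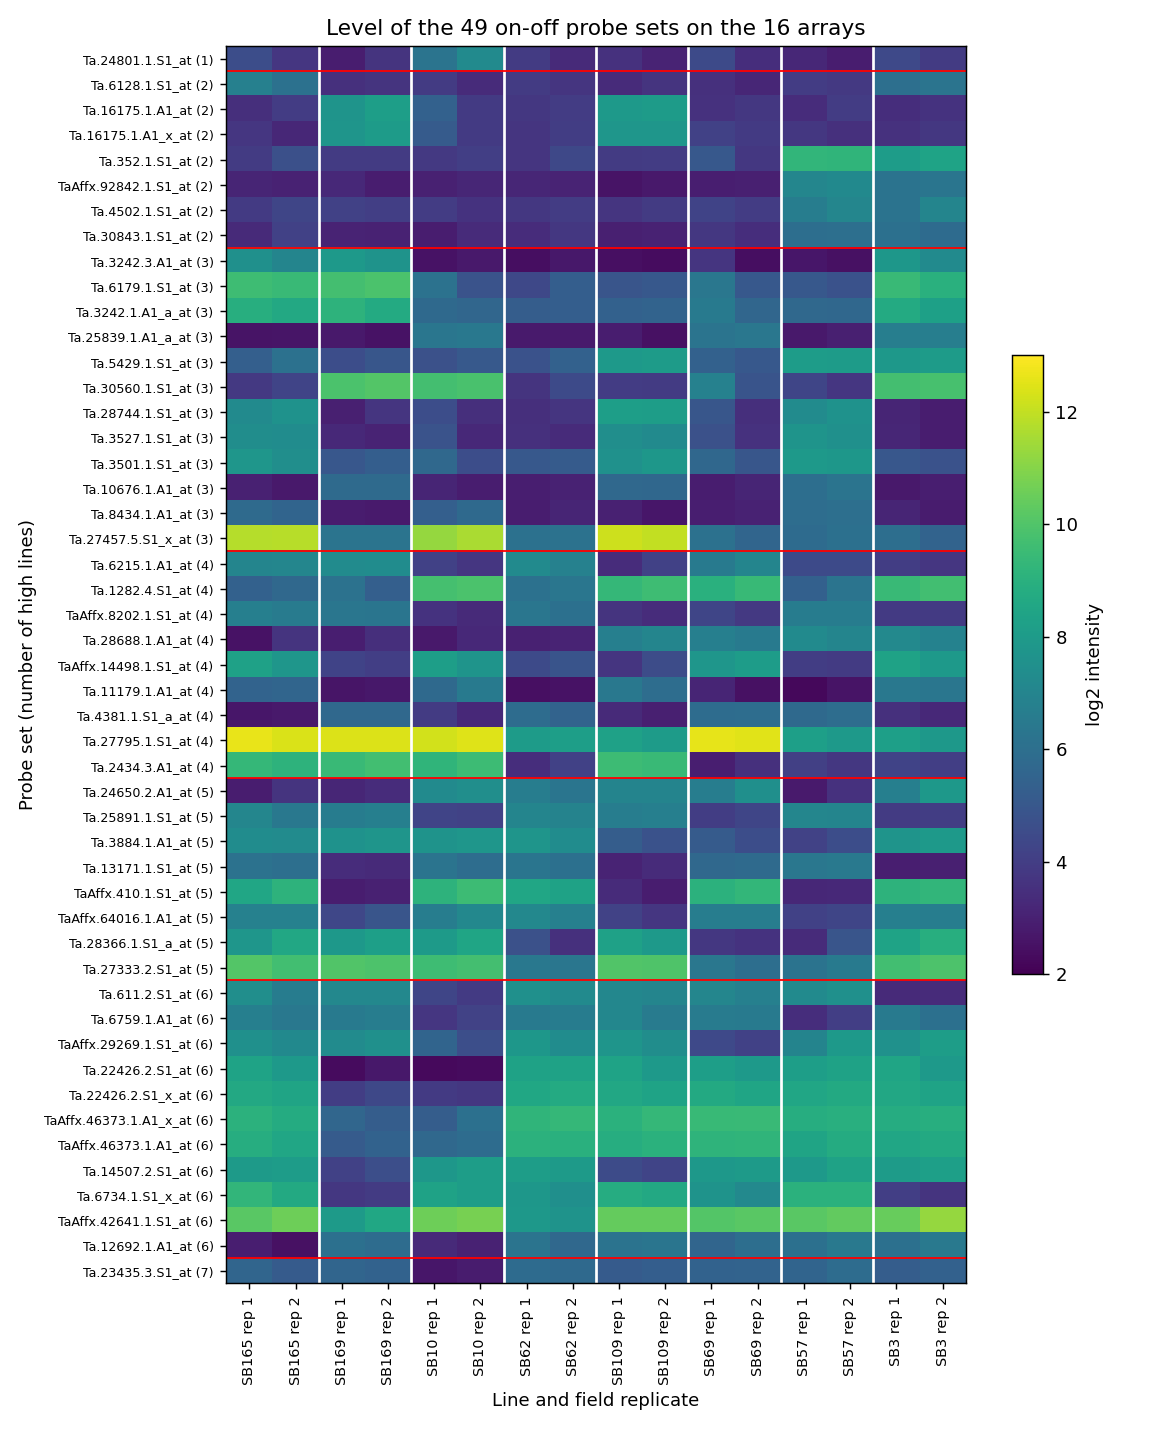
Log2 intensity of the 49 on-off probe sets (rows, with the number of high lines in brackets) on the 16 arrays (columns, 2 field replicates per line). Colour gives the level, and red lines separate probe sets by their number of high lines. The rows show changing sets of bright lines, with 20 rows of 1 to 3 high lines, 9 of 4 and 20 of 5 to 7.

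The 49 probe sets took 30 of the 127 splits that 8 lines allow. A split here is a division of the lines into the same groups, whichever group is high. There were 19 splits with 1 probe set each, 5 with 2, 4 with 3 and 2 with 4. The number of high lines was 1 in 1 probe set, 2 in 7, 3 in 12, 4 in 9, 5 in 8, 6 in 11 and 7 in 1. Probe sets with few high lines and with many high lines were thus balanced, at 20 each. Of the 11 splits with more than 1 probe set, 6 occurred in both directions, so that lines high in one probe set were low in another.

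The 49 fell into 45 clusters, a cluster being the probe sets that share the first number of their identifier and so come from related transcript sequences. In 4 clusters there were 2 of the 49 each, and each such pair had the same high lines. These pairs are not separate observations. The split of SB169 and SB10 from the other lines held 4 probe sets from 2 clusters, and in all 4 SB169 and SB10 were low. The split of SB57 and SB3 from the others held 4 probe sets from 4 clusters, and in all 4 SB57 and SB3 were high. The order of splits depended on the arrays and on the replicate limit. With SB165 replicate 2, SB10 replicate 1 and SB69 replicate 1 left out, these lines had 1 array each. The replicate limit could not act on them. The split of SB10 and SB3 from the others was then the most common, with 6 probe sets against 1 with all arrays. The splits of SB169 and SB10 and of SB57 and SB3 held 5 and 4. With all arrays, many probe sets that the replicate limit removed split SB169, SB62 and SB57 from the others, as none of the 49 did. They were more than any split held among the 49. Without the replicate limit, this split was thus the most common.

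A single line set itself apart in 2 of the 49 probe sets, and in both it was SB10. This rests on the replicate limit: Ta.1112.1.S1_at, high in SB62 alone with a gap of 4.09, and Ta.11279.1.A1_at, low in SB69 alone with a gap of 2.85, were left out for uneven replicates. At Ta.24801.1.S1_at SB10 was high, with log2 levels of 6.23 and 7.25, against 2.88 to 4.60 on the 14 arrays of the other lines (median 3.61). The gap was 2.57 log2 units. At Ta.23435.3.S1_at SB10 was the only low line. There the 14 arrays of the other lines had levels from 5.16 to 5.89 (median 5.47), against 2.68 and 2.85 in SB10. Both differences exceeded the spread between replicates, as the choice requires, and the groups did not overlap.

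SB57 and SB3 shared a high level at Ta.352.1.S1_at. The levels were 9.25 and 9.18 in SB57 and 8.08 and 8.38 in SB3, against 3.69 to 5.05 on the 12 arrays of the other lines (median 3.93). SB57 stood above SB3 on both arrays, and the highest of the low arrays was SB69 replicate 1. The other probe sets with this split were TaAffx.92842.1.S1_at, Ta.4502.1.S1_at and Ta.30843.1.S1_at, with gaps of 3.11, 2.50 and 2.24 log2 units.

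SB165, SB169 and SB3 were high together in 3 probe sets of 2 clusters. The widest gap, 4.21 log2 units, was at Ta.3242.3.A1_at, with 6.99 to 7.91 on the 6 high arrays (median 7.59) and 2.35 to 3.68 on the 10 low arrays (median 2.53). The others were Ta.3242.1.A1_a_at of the same cluster, with a gap of 2.43, and Ta.6179.1.S1_at, with a gap of 3.53. All 3 had their widest replicate difference in SB69.

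SB165, SB109 and SB57 were high together in 3 probe sets of separate clusters, Ta.28744.1.S1_at, Ta.3527.1.S1_at and Ta.3501.1.S1_at. Their gaps were 3.23, 3.18 and 2.29 log2 units. At Ta.28744.1.S1_at the 6 high arrays had levels of 7.28 to 8.16 (median 7.61), against 2.89 to 4.96 on the 10 low arrays (median 3.49). SB10 replicate 1 (4.61) and SB69 replicate 1 (4.96) were the highest of the low arrays, while the other replicates of these lines had 3.48 and 3.47.

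The widest spans of line means were 6.37 log2 units at TaAffx.410.1.S1_at, 6.33 at Ta.2434.3.A1_at and at Ta.27457.5.S1_x_at, 6.04 at Ta.30560.1.S1_at and 6.03 at Ta.22426.2.S1_at. These 5 had 5 different sets of high lines. TaAffx.410.1.S1_at had levels of 8.34 to 9.53 (median 9.11) on the 10 arrays of SB165, SB10, SB62, SB69 and SB3, against 2.89 to 3.35 (median 3.11) on the 6 arrays of SB169, SB109 and SB57. Its gap was 5.17 log2 units in the normalized values.

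Ta.2434.3.A1_at was high in SB165, SB169, SB10 and SB109, with 9.10 to 9.68 on 8 arrays (median 9.46), against 2.93 to 4.22 on the 8 arrays of SB62, SB69, SB57 and SB3 (median 3.91). Ta.27457.5.S1_x_at was high in SB165, SB10 and SB109, at 11.28 to 12.15 on 6 arrays (median 11.80), against 5.50 to 6.22 on 10 low arrays (median 6.08). In both, replicates lay close together on either side, at most 0.65 log2 units apart.

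Ta.30560.1.S1_at was high in SB169, SB10 and SB3, at 9.72 to 10.08 on 6 arrays (median 9.81), and low in the other lines, at 3.67 to 6.82 on 10 arrays (median 4.10). SB69 replicate 1 carried the 6.82, while SB69 replicate 2 had 4.88. This replicate difference was 49.77% of the gap, just inside the limit of 50%.

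Ta.22426.2.S1_at had a gap of 5.54 log2 units in the normalized values, the largest number among the 49. The 12 arrays of SB165, SB62, SB109, SB69, SB57 and SB3 lay between 7.93 and 8.45 (median 8.25). The low arrays had 2.30 and 2.72 in SB169 and 2.28 and 2.31 in SB10. The second probe set of this cluster, Ta.22426.2.S1_x_at, had a gap of 4.29, and the pair TaAffx.46373.1.A1_at and TaAffx.46373.1.A1_x_at had the same split, with gaps of 2.79 and 3.22.

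SB169 and SB109 formed a side of their own in 3 probe sets, in both directions. At Ta.14507.2.S1_at they were low. The 12 arrays of the other 6 lines had 7.81 to 8.35 (median 8.03), against 4.12 and 4.64 in SB169 and 4.50 and 4.27 in SB109. At Ta.16175.1.A1_at and Ta.16175.1.A1_x_at, which share a cluster, SB169 and SB109 were high, with gaps of 3.28 and 3.26 log2 units.

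The probe set with a gene symbol was Ta.1282.4.S1_at, of LOC543095, which RefSeq (IWGSC CS RefSeq v2.1) also names LTP3. Lipid transfer proteins are small secreted proteins of plants that bind lipids, and they are known from the cuticle and from defence against pathogens. The log2 levels were 9.75 and 9.90 in SB10, 9.32 and 9.58 in SB109, 8.97 and 9.40 in SB69 and 9.44 and 9.67 in SB3. They were 5.41 and 5.72 in SB165, 6.15 and 5.32 in SB169, 6.10 and 6.31 in SB62 and 5.36 and 6.22 in SB57. The gap was 2.97 log2 units, or 7.85-fold, and the low lines stood at a mean of 5.83 ± 0.27 (SD over 4 line means), above the median of all values.

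A second probe set of LOC543095, Ta.1282.1.S1_x_at, was not on-off. It lay between 12.13 and 12.67 on all 16 arrays, and its line means spanned 0.33 log2 units. The other 3 probe sets of the cluster were as even, with spans of line means of 0.28, 0.30 and 0.19 log2 units. They are listed under LOC100037539, with 2 probe sets, and LOC778422. The cluster thus held 1 on-off probe set beside 4 with about the same level in every line.

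**Figure D2:**
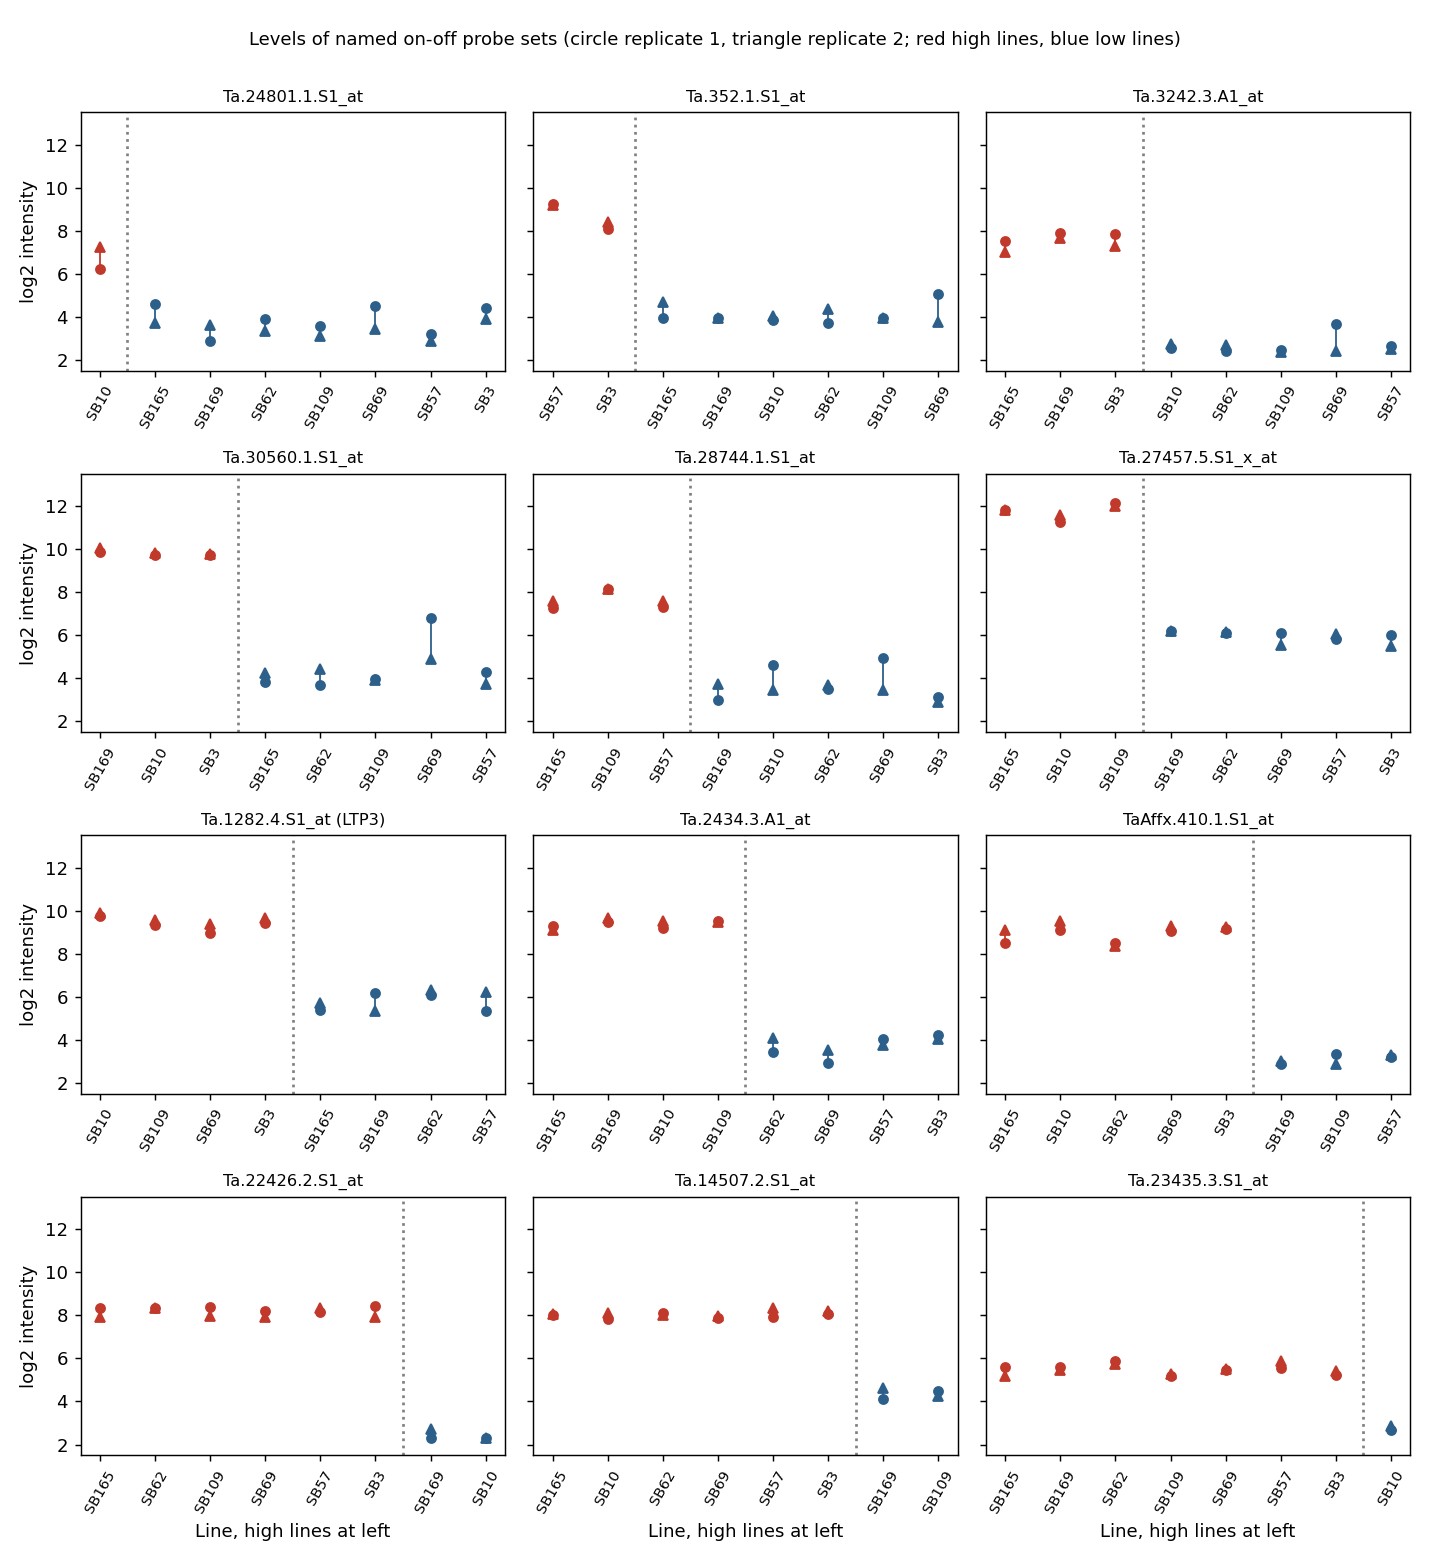
Log2 intensity of 12 on-off probe sets by line, with the high lines (red) at the left of the dotted line and the low lines (blue) at its right. Circles are replicate 1 and triangles replicate 2. Ta.22426.2.S1_at has the largest gap in normalized values, with 7.93 to 8.45 on the high and 2.28 to 2.72 on the low arrays, and SB69 replicate 1 stands above replicate 2 at Ta.30560.1.S1_at (6.82 and 4.88).

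Each line was high in some of the 49 probe sets and low in others. SB165 was high in 33 and SB3 in 31. SB109 was high in 27 and SB57 in 26, while SB69 was high in 22, SB169 in 21 and SB10 and SB62 in 20 each. Among the 20 probe sets with 1 to 3 high lines, SB3 was high in 11, SB57 in 10, SB165 in 9 and SB109 in 8. SB62 was high in 0 of these 20 and SB69 in 1.

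The count for SB165 moved with the arrays and the replicate limit used. With all arrays and no replicate limit, SB165 was high in 47 and low in 28 of 75. Of the 26 further probe sets that met the other limits and were left out for uneven replicates, SB165 had the widest replicate difference in 11 (in 4 as a low line), SB10 in 8, SB69 in 6 and SB3 in 1. With replicate 1 of SB10 and of SB69 and replicate 2 of SB165 left out, the replicate limit could not act on these lines. In 25 of the 26, these lines held the widest replicate difference, so a rise in number is partly built in. There were then 81 probe sets, 48 of them among the 49 and all 48 with the same high lines. At the 49, the replicate limit keeps a line from crossing the gap when an array is left out, so this agreement is largely fixed by the choice. SB165 was then high in 45 and low in 36 of 81, against 33 high and 16 low of 49 with all arrays. SB3 was then high in 50 and low in 31 and had the most high calls. SB62 was high in 2 and SB69 in 1 of the 31 with 1 to 3 high lines.

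The pair of lines most often on the same side was SB62 and SB69, in 39 of 49 probe sets (79.6%), with both high in 16 and both low in 23. The pair most often on opposite sides was SB10 and SB57, which shared a side in 13 (26.5%). Over the 28 pairs of lines the median was 25. SB62 and SB57 shared a side in 31, SB165 and SB62 in 30, and SB109 and SB57 in 30. The order of pairs depends on leaving out the 4 against 4 split. With its 11 probe sets counted in, SB165 and SB62 stayed at 30 of 60, below SB165 and SB10 at 37. SB109 and SB57 then had 41, SB62 and SB69 had 50, and SB10 and SB57 stayed at 13.

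Counted once per cluster, SB62 and SB69 shared a side in 35 of 45 and SB10 and SB57 in 11. Without the 3 arrays named above they were 75.3% and 29.6% of 81, and the same pairs stood at the ends of the order. These counts describe the chosen probe sets, were not tested, and do not measure how related the lines are.

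**Figure D3:**
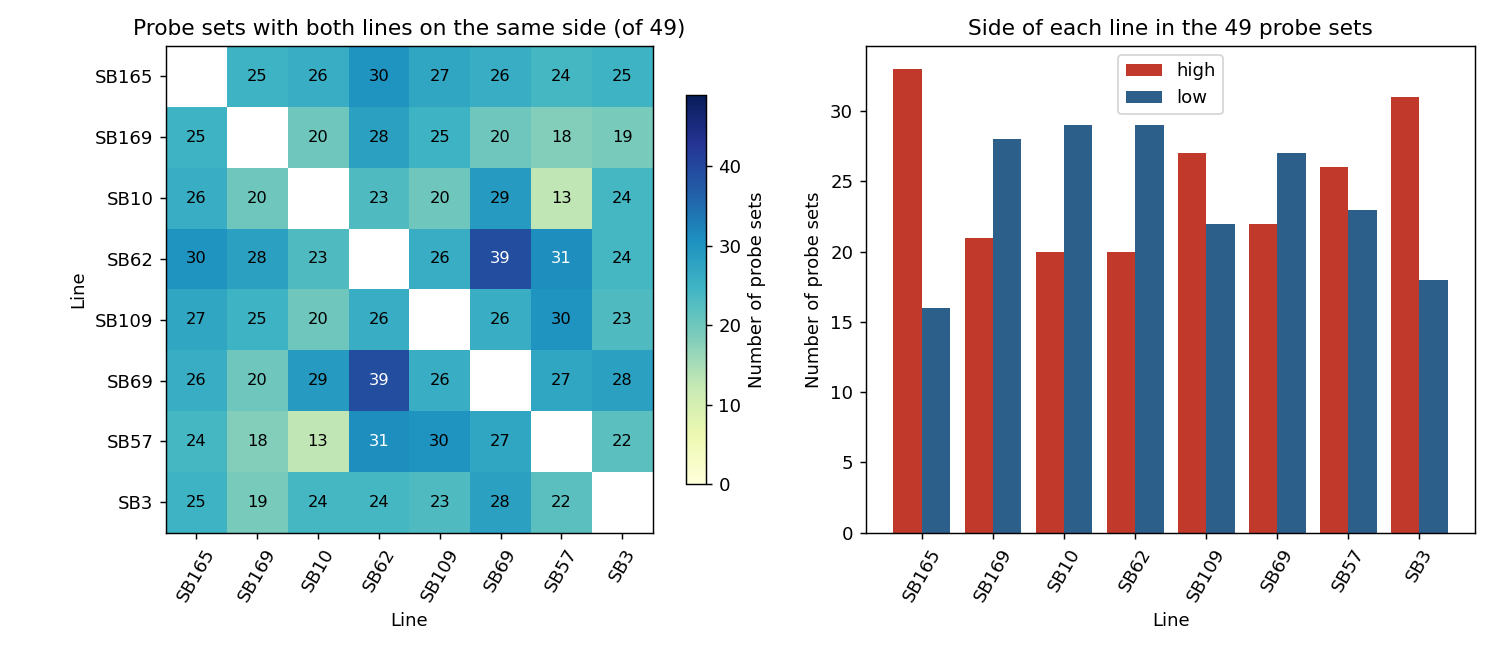
Left, number of the 49 on-off probe sets in which 2 lines were on the same side, for each pair of lines. Right, number of probe sets in which each line was high (red) or low (blue). SB62 and SB69 shared a side in 39 and SB10 and SB57 in 13, and SB165 was high in 33 and low in 16.

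Low lines did not always have even replicates. The difference between the replicates of a low line was expressed as a percentage of the distance from its lower replicate to the high level, on the linear intensity scale. It exceeded 5% in 39 of 192 combinations of a probe set and a low line. In 24 of the 39 the higher array was SB165 replicate 2, SB10 replicate 1 or SB69 replicate 1. These arrays were picked with earlier results of these data known, so the count is a description. SB69 replicate 1 was the higher by over 5% in 11 of 27 probe sets at which SB69 was low, with a median of 9.0% among the 11, and replicate 2 in 0.

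SB10 replicate 1 was the higher by over 5% in 9 of 29, with a median of 11.1% among the 9, and SB10 replicate 2 in 3. SB165 replicate 2 was the higher in 4 of 16, by 9.46% in the median of the 4, and SB165 replicate 1 in 1. In the other 5 lines, either array was the higher by over 5% in at most 3 probe sets. The highest value among the 49 was 15.2%, in SB10 replicate 1. In the 26 probe sets left out for uneven replicates, SB10 replicate 1 was the higher by over 5% in 10 of 14 (median 13.9%), SB69 replicate 1 in 7 of 15 (median 10.6%) and SB165 replicate 2 in 7 of 12 (median 11.4%). High lines could be uneven too. In these 26, SB165 was high in 14, and replicate 1 was the lower in 9 of them. The median of replicate 1 minus replicate 2 was -1.33 log2 units. At the 49, SB165 replicate 1 was the lower in 8 of the 33 where SB165 was high. The source of these uneven levels was not tested.

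**Figure D4:**
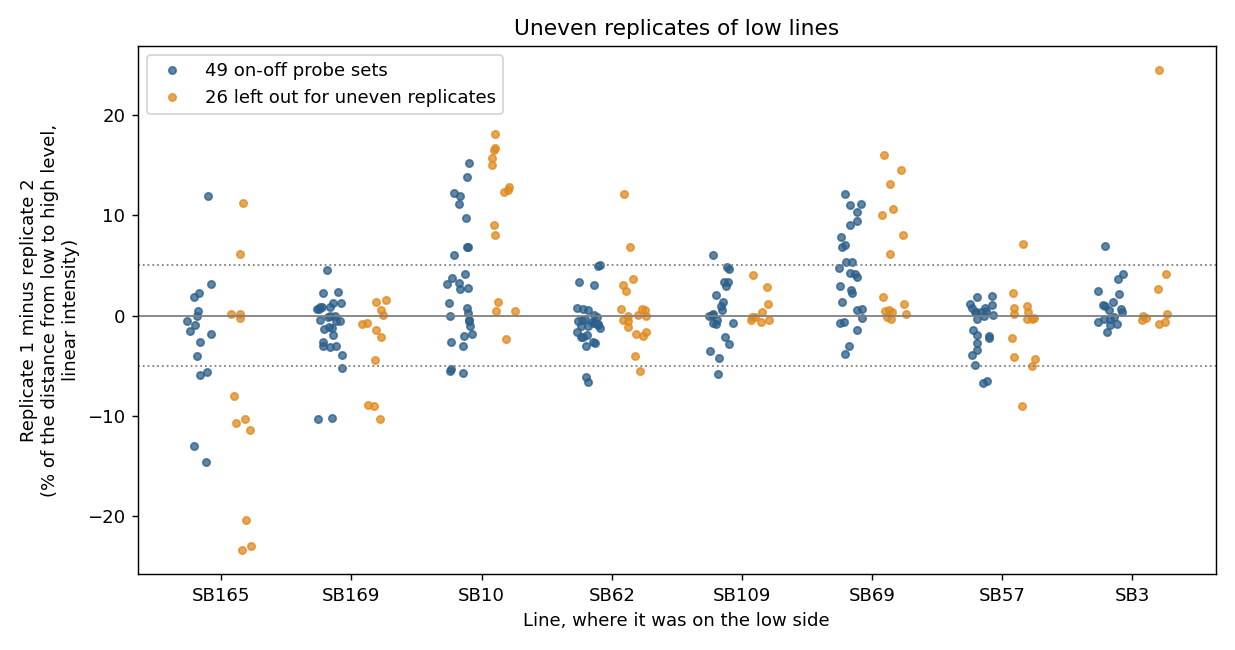
Replicate 1 minus replicate 2 of each line at probe sets where it was low, as a percentage of the distance to the high level on the linear scale, for the 49 on-off probe sets (blue) and 26 left out for uneven replicates (orange). Points are probe sets, spread sideways at random, and dotted lines mark 5% either way. SB10 and SB69 have most of their uneven points above 0, where replicate 1 is the higher (9 of 29 and 11 of 27 of the 49 over 5%), and SB165 has most below 0.

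The splits were looked up in arrays that had not chosen them. With the range and gap limits applied to the replicate 1 arrays alone, and the 4 against 4 split left out as before, 49 probe sets were chosen, 33 of them among the 49 above. In the replicate 2 arrays, the high and low lines of 46 of these 49 (93.9%) did not overlap, against 13.9% of all wheat probe sets split at their largest gap in replicate 1. Chosen on the replicate 2 arrays alone there were 76 probe sets, 43 of them among the 49, and in the replicate 1 arrays 70 of the 76 (92.1%) did not overlap, against 13.4% of all wheat probe sets split in the same way. Not overlapping is a weaker demand than the limits of the choice, and for those also among the 49 above the replicate limit largely fixes it. No limit on span, gap or dim values was set for the background. It thus includes probe sets with small differences between lines, and a higher share among wide gaps is partly built in. Of the 608 line values of these 76, 595 lay on the side their line had in replicate 2, and 7 of the 13 others belonged to SB3.

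Other probe sets of the same clusters, which did not meet the choice, were tested by limma's moderated F-test over the 8 lines, adjusted over all wheat probe sets by Benjamini-Hochberg. In the 21 clusters that held any, 19 of 55 such probe sets (34.5%) passed at an adjusted p under 0.05. Over the whole array 3.99% of the wheat probe sets passed, and 5.16% of the 24316 in clusters with more than 1 probe set. All 19 had a higher mean in the lines in which the on-off probe set of their cluster was high, by 0.29 to 5.30 log2 units. Passing or not, 42 of the 55 were higher in these lines. A higher mean is not the same split. At Ta.28688.3.S1_x_at, which passed, SB169 (9.07) is a low line of the on-off probe set. It stood above the high lines SB109 (9.06), SB69 (8.59) and SB3 (8.85). Those that share a design sequence with an on-off probe set and differ in the suffix of the identifier passed in 6 of 10 cases, and those from another design sequence in 13 of 45. Without the suffixes _x_at, _s_at and _a_at, 5 of 20 passed. Probes of a cluster can read the same transcript, so the 55 are not independent of the 49.

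The largest differences among these were close in size to those of the on-off probe sets. At Ta.611.1.A1_at the lines SB165, SB169, SB62, SB109, SB69 and SB57 were higher than SB10 and SB3 by 5.30 log2 units (limma adjusted p = 4.14e-06). At Ta.3242.1.A1_at SB165, SB169 and SB3 were higher than the other lines by 5.07 (limma adjusted p = 3.65e-07). At Ta.6734.1.S1_a_at the 6 high lines of its cluster were higher than SB169 and SB3 by 3.89 (limma adjusted p = 7.07e-10). Ta.611.1.A1_at and Ta.3242.1.A1_at also met the range and gap limits and were left out for uneven replicates.

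In 9 of the 21 clusters no other probe set passed. The 36 that did not pass had differences between -0.12 and 0.78 log2 units. Of these 36, 18 had a mean level above the high level of the on-off probe set of their cluster, as had 7 of the 19 that passed. In cluster Ta.27457, the on-off probe set differed by 5.79 log2 units, while 6 other probe sets of the cluster had differences between -0.12 and -0.0031. Mean levels of these 6 were 10.55 to 13.54, against 11.77 in the high lines of the on-off probe set. In cluster Ta.2434 the differences of the other 3 were 0.0045 to 0.085, against 5.64 at the on-off probe set. Not passing does not show equal levels in all lines.

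**Figure D5:**
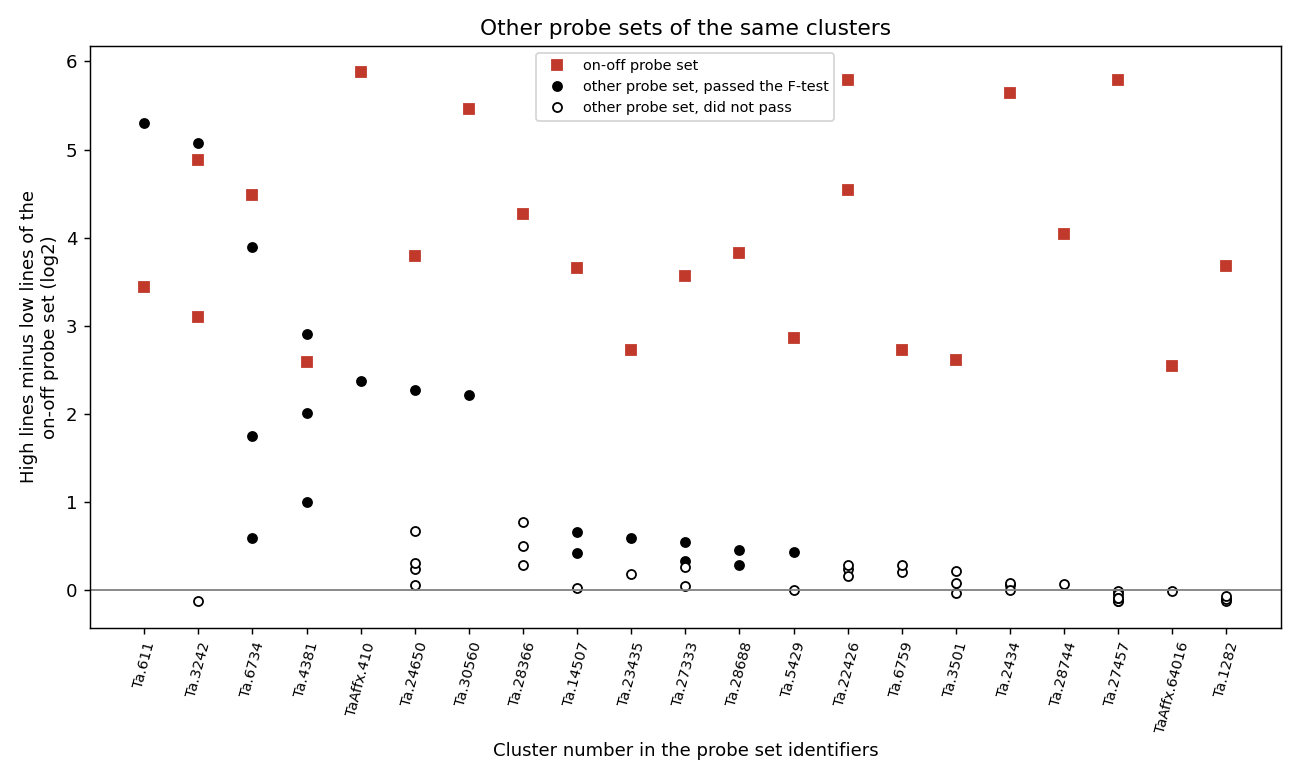
Difference between the high and the low lines of the on-off probe set, in log2 units, for the on-off probe sets (red squares) and the 55 other probe sets of the same 21 clusters (filled circles passed limma's F-test over lines, open circles did not). Clusters run from the largest to the smallest difference among the other probe sets. The 19 filled circles lie at 0.29 to 5.30, and the open circles between -0.12 and 0.78.

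Identifiers gave further features that the choice had not used. Probe sets named TaAffx made up 9 of the 49 (18.4%), 13.6% of the 264 probe sets with a span of at least 3 log2 units and 48.6% of all wheat probe sets. The suffix _x_at, given where some probes also match other sequences, was carried by 5 of the 49 (10.2%), against 22.7% of the 264 and 11.1% of all. The suffix _s_at was carried by 0 of the 49, against 9.85% of the 264 and 4.28% of all. These shares are descriptions with no test.

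Of the 264 probe sets with a span of at least 3 log2 units, 91 had a gap over 60% of it. The nearest values at the limits were a span of 3.003 inside and 2.994 outside, a gap of 60.07% inside and 59.74% outside, and a replicate difference of 49.77% inside and 52.92% outside. All 49 passed limma's F-test over lines at an adjusted p under 0.05. That test uses the levels that chose them, so nothing is read from it.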

How the data were processed

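The values are the deposited normalized intensity values of 16 arrays, 1 per probe set. Per the submitters' processing notes, the tools were GCOS and RMA, with no versions given. No source states the scale, and the range of the values is that of a linear one. RMA compresses differences of dim probe sets. The log2 was taken after a floor of 1, below which 0 values lay. Another 174 probe sets (controls and reporters) were not used, and 0 of them met the on-off limits. No filter on dim values was applied.

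The choice of probe sets, the lists, the 3 arrays left out together and the tests were made with earlier results of these data known. Named were the probe set with the widest gap in each of the 6 most common splits (at least 3 probe sets each, a tie at the fifth place), those that set 1 line apart, and the 5 with the widest span, 11 in all. The others were named after their values were seen. Gene symbols came from the platform annotation, which gives no probe set several symbols and lists none for 59842, with 770 of 771 gene IDs found in RefSeq.

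The F-test over lines came from limma 3.58.1 (R 4.3.3; 1 mean per line, eBayes with trend, Benjamini-Hochberg), checked on simulated data. Counts and plots used Python 3.11.15 with numpy 2.4.6, pandas 2.3.3 and matplotlib 3.10.9. Field replicates are separate plots per the labels, and their number, 2 per line, limits the precision.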

Additional observations from a re-analysis of the deposited data

How the results depend on the processing

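Counts of on-off probe sets follow the limits that define them: against 49 in 30 splits, there were 108 in 47 splits with a span of at least 2 log2 units, 24 in 18 with at least 4, 31 with a gap over 70%, 20 in 16 splits with replicate differences under 25% of the gap, and 75 with no limit on these. The replicate 2 arrays alone gave 76, and 81 were found with replicate 1 of SB10 and of SB69 and replicate 2 of SB165 left out. A line with 1 array left cannot fail the replicate limit, also where arrays were left out 1 at a time. Without SB3 replicate 1 there were 60, against 57 without SB69 replicate 1 and 56 without SB165 replicate 2. A gap over 50%, a floor of 16 intensity units, quantile normalization, centring on array medians and removal of the suffixed probe sets kept the count within 1.5 times. A similar count is not the same set. With the floor of 16 there were 41, of which 34 were among the 49, so part of the set depends on dim values. With quantile normalization, 45 of 46 were among the 49. The settings of the shares by line and by pair were added after the data were seen. SB165 was high in 67.3% of the 49, against 55.6% of the 81. Left out 1 at a time, the arrays gave 39 to 62 on-off probe sets in 25 to 35 splits, 14 to 22 passing probe sets among the 55 of the same clusters, and 1711 to 3976 over the array (highest without SB3 replicate 1). At an adjusted p under 0.01, 1253 passed over the array. Without suffixed probe sets, 5 of the 20 that remained of the 55 passed. With the replicate block, 2924 passed over the array and 19 of the 55. Deviations of same-numbered arrays correlated over 0.1 in 14 of 28 pairs of lines (-0.295 to 0.536, median 0.108). The labels do not say that a number is shared between lines as a block, so the numbers were not taken as a pairing. The causes were not tested beyond what each setting changes by construction.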
